A study of Mus musculus with 6 samples.

Results

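The interferon regulatory factors are the Irf family of transcription factors, and 8 of their genes were followed here, Irf1, Irf2, Irf3, Irf4, Irf5, Irf7, Irf8 and Irf9. They were chosen by gene family and name, with earlier results of these data known, and all 8 were among the 16729 genes of the deposited count table. RNA-seq was performed on tumors that mG7080 cells formed in the brains of C57BL/6 mice. These cells are a gliomasphere culture from brain tumors of mice with engineered deletions, p53 and Nf1 included. Hosts with intact Esm1 gave 3 tumor libraries (WT 1 to WT 3), and hosts with Esm1 knocked out gave another 3 (KO 1 to KO 3). Esm1 encodes Endocan, a proteoglycan secreted by endothelial cells. Hosts were young adult females by the methods. All hosts received the same tumor cells, so the deletion lay in the host alone and each library held RNA of tumor and host cells together. The question addressed was whether loss of host Esm1 went along with other levels of the Irf genes in the tumor.

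Irf proteins bind short DNA elements through a shared tryptophan-rich domain. Irf3 and Irf7 are phosphorylated downstream of nucleic acid sensors and switch on the type I interferon genes. Irf9 then works with Stat2 in the complex that reads the interferon signal at elements called ISRE. Irf1 is induced by interferon-gamma at elements called GAS, and Irf2 occupies many of the same sites as a repressor. Irf5 and Irf8 act mainly in myeloid cells, microglia included, and Irf4 mainly in lymphocytes and plasma cells.

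Gene counts summed to 17632070 to 22241832 per library. By the study's description the libraries of a group came from separate mice. Levels of a gene across libraries are given as CPM, read counts relative to library size, scaled with TMM factors, which correct for differences in RNA composition. Levels of different genes are ranked only in the deposited FPKM, which is per gene length and scaled to the library total, while sums of CPM over a list serve to compare libraries. Intervals and floors on counts cover counting error only. The library labelled KO 2 held 24 Esm1 counts, against 25, 21 and 82 in WT 1, WT 2 and WT 3 and 1 and 4 in KO 1 and KO 3. Whether its label is right was not tested, and tumor cells, in which Esm1 was not deleted, were part of every library. On the first principal component of log2 CPM (84.5% of the variance) KO 2 lay between WT 1 and WT 3, and KO 1 and KO 3 stood apart from the other 4. Every comparison was therefore made over all 6 libraries and again without KO 2. KO 2 was left out on the ground of these same values. The p-values of fits without it thus describe the libraries that remain and do not test the host genotype.

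By GENCODE annotation (GRCm38) the genes lie apart, with Irf1 at chr11:53770014-53778374, Irf2 at chr8:46739732-46847458, Irf3 at chr7:44997648-45002848 and Irf4 at chr13:30749226-30766976. Irf5 lies at chr6:29526625-29541871, Irf7 at chr7:141262706-141266481, Irf8 at chr8:120736358-120756694 and Irf9 at chr14:55603571-55610030, all on the plus strand but Irf7. Some share bases with a neighbour that is also in the count table. Irf3 overlaps Bcl2l12 (1065 bases), Irf5 overlaps Tnpo3 (1045 bases) and Irf7 overlaps Phrf1 (45 bases) on the opposite strand, and Irf9 overlaps Rnf31 (123 bases) on the same strand. Whether counting used strand is not given in the sources used here, so the counts of Irf3, Irf5 and Irf7 are uncertain to that extent. For Irf9 strand would not separate the shared bases, so its counts are uncertain either way.

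Promoters of the genes were searched for the core letters of both interferon elements, GAAANNGAAA for ISRE and TTCNNNGAA for GAS, on both strands. Windows were the 250 bases before each RefSeq start site (GRCm38.p6), which gave 11 windows for the 8 genes. A GAS match stood in windows of 3 genes, Irf1, Irf2 and Irf8, and 7.02% of 32851 promoter windows of the same length held one. An ISRE match stood in 1 window, that of Irf2, against 2.98% of all windows. The 3 windows with a match are shown, read 5′ to 3′ on the plus strand and ending at the base before the start site, with the matches in capitals. In Irf1 (chr11:53769764-53770013) the match began 90 bases before the start. In Irf8 (chr8:120736108-120736357) a pair of GAS matches began 171 and 153 bases before it. In Irf2 (chr8:46739495-46739744) the ISRE match began 241 and the GAS match 224 bases before it. A match is a description of these letters and not of binding.
Irf1: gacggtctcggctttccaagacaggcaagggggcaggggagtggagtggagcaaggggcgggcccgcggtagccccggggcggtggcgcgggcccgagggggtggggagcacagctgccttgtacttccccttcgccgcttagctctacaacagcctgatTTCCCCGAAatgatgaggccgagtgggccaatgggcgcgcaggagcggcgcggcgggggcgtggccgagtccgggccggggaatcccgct
Irf8: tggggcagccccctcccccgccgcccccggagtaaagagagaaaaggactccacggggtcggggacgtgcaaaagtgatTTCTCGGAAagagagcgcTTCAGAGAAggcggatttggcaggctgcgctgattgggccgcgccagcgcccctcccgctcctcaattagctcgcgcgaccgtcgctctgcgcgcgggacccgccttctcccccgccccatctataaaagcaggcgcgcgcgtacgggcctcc
Irf2: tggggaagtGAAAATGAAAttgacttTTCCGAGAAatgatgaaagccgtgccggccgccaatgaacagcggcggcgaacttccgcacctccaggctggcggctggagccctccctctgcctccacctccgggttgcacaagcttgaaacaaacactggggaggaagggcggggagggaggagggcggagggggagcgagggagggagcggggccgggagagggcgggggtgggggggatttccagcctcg

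In tumors of WT hosts the 8 genes held the same order in each of the 3 libraries. By deposited FPKM, Irf1 was highest at 83.6 ± 20.8 (SD, n = 3), followed by Irf7 at 59.8 ± 22.1 and Irf9 at 39.8 ± 9.01. Irf8 at 24.8 ± 2.50 and Irf3 at 21.6 ± 4.4 came next, then Irf2 at 11.3 ± 0.462 and Irf5 at 7.45 ± 1.21, and Irf4 was lowest at 0.672 ± 0.0475. The ranges over WT libraries overlapped between Irf1 and Irf7, between Irf7 and Irf9 and between Irf8 and Irf3. They did not overlap between the other neighbours in the order.

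The order was a different one in KO 1 and KO 3. In KO 1 the highest was Irf3 at 10.6 FPKM with Irf2 next at 10.5, and in KO 3 it was Irf2 at 9.90 with Irf3 next at 7.93. Irf1 had moved to rank 3 in KO 1 (9.21 FPKM) and to rank 4 in KO 3 (4.06 FPKM). Irf7, with rank 2 in every WT library, had rank 6 in KO 1 (2.41 FPKM) and rank 7 in KO 3 (0.789 FPKM). Summed over the 8 genes, FPKM was 183.4 to 298.0 in the WT libraries, 46.9 in KO 1 and 32.2 in KO 3. In KO 2 the sum was 273.0 FPKM, with Irf1 highest at 115.0 and Irf8 next at 47.7, so that this library kept the high total but not the WT order.

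**Figure D1:**
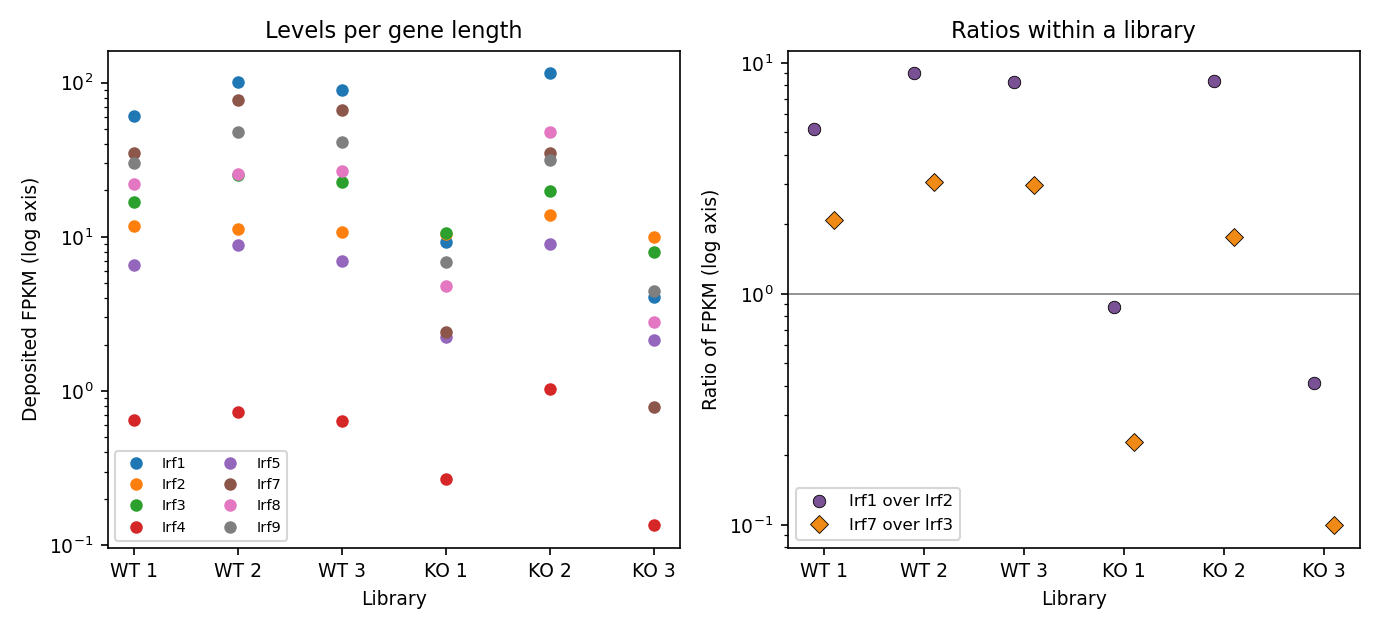
Left, deposited FPKM (log axis) of the 8 Irf genes in each library, 1 point per gene and library. Right, ratio of Irf1 to Irf2 and of Irf7 to Irf3 FPKM within each library (log axis, grey line at 1), where KO 1 and KO 3 lie below 1 for both ratios and KO 2 lies above 1.

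Over all 6 libraries, none of the 8 genes differed between KO and WT hosts beyond the spread between libraries (0 of 8 lower and 0 of 8 higher, adjusted p under 0.05). The background was 0.0% of 16166 genes in either direction, by edgeR's quasi-likelihood test, the p-values being adjusted (Benjamini-Hochberg) across the whole table. At an unadjusted p under 0.05, 1923 of all genes were lower and 2462 higher, and 0 of the 8 Irf genes were among them. By DESeq2 425 genes were lower and 757 higher, by edgeR's exact test 46 and 75, and by limma-voom 0 and 0, again with 0 Irf genes. DESeq2 gave no p for Irf1 and Irf8.

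Without KO 2, 7 of the 8 genes were lower in KO hosts, all but Irf2, and 0 were higher. The background was large, with 28.3% of 16279 genes lower and 24.5% higher. With a fold change above 4 as well, 4 of the 8 were lower (Irf1, Irf7, Irf8 and Irf9) against 7.48% of all genes, and 0 were higher against 1.51%. With the 4 libraries of the study's own table (WT 1, WT 2, KO 1 and KO 3) 5 of 8 were lower, against 13.9% of 16183 genes, and 0 higher against 2.87%. With a fold change above 4 the same 4 genes were lower in these libraries, against 6.23% of all genes (higher 0, against 0.451%). In that fit Irf3 (adjusted p = 0.063) and Irf4 (adjusted p = 0.0673, both edgeR) no longer passed. All 8 genes passed the filter on low counts in these fits.

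**Figure D2:**
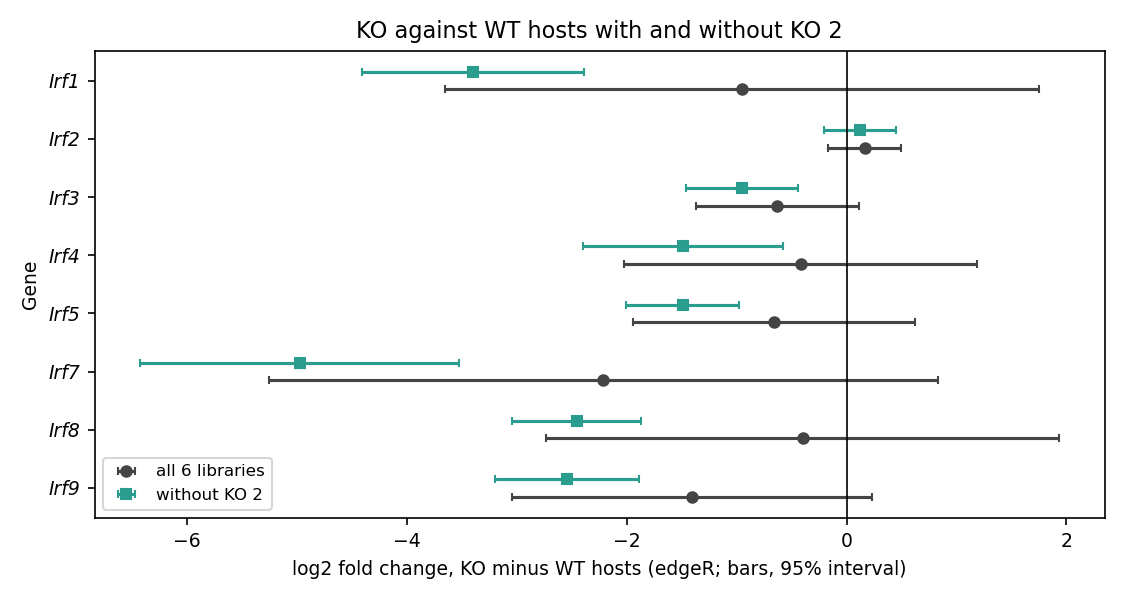
Log2 fold change of each Irf gene, KO minus WT hosts, with 95% intervals from edgeR, over all 6 libraries (grey circles) and without KO 2 (green squares). The intervals over all 6 libraries span 0 for all 8 genes, and without KO 2 only that of Irf2 does.

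The genes of the interferon-gamma arm, Irf1 and Irf2, had unlike values. Irf1, the activator, stood at 125.0, 201.4 and 179.5 CPM in WT 1, WT 2 and WT 3 and at 21.5, 230.8 and 10.02 CPM in KO 1, KO 2 and KO 3. KO 1 and KO 3 thus lay far below every WT library and KO 2 above all of them, and the groups overlapped. The means were 168.7 ± 39.3 CPM in WT and 87.4 ± 124.3 CPM in KO hosts (SD, n = 3), a log2 fold change of -0.95 (standard error, SE, 1.11, adjusted p = 0.531, edgeR). Without KO 2 the log2 fold change of Irf1 was -3.40 (SE 0.41, adjusted p = 0.00798, edgeR).

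Irf2, the repressor, was nearly level, with 28.1, 26.0 and 25.3 CPM in the WT libraries and 28.4, 32.1 and 28.4 CPM in KO 1, KO 2 and KO 3. For this gene the log2 fold change was 0.16 (95% interval -0.17 to 0.50, adjusted p = 0.381, edgeR) and without KO 2 it was 0.12 (95% interval -0.21 to 0.45). On the TMM scale every KO library lay above every WT library, as for 12.6% of all genes. This separation depended on scaling, since in FPKM KO 1 (10.5) and KO 3 (9.90) lay below the WT libraries (10.8 to 11.7) and KO 2 (13.8) above them. The ratio of Irf1 to Irf2 FPKM, which no library scaling can change, was 5.17, 9.01 and 8.25 in the WT libraries. It was 0.879 in KO 1, 8.35 in KO 2 and 0.410 in KO 3. In KO 1 and KO 3 the repressor was thus the more abundant of the pair.

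Of the genes that start type I interferon production, Irf7 had the largest estimated fold change of the family and Irf3 a small one. Irf7 had 59.6, 127.6 and 111.3 CPM in the WT libraries and 4.65, 58.0 and 1.61 CPM in KO 1, KO 2 and KO 3. The 31 reads of Irf7 in KO 3 have an exact 95% counting interval of 1.09 to 2.29 CPM. Irf7 was the only one of the 8 genes with every KO library below every WT library, as for 14.8% of all genes, and KO 2 lay barely below WT 1 (34.98 against 35.00 FPKM). The means were 99.5 ± 35.5 CPM and 21.4 ± 31.7 CPM (SD, n = 3), with a log2 fold change of -2.21 (SE 1.25, adjusted p = 0.242, edgeR). Without KO 2 it was -4.97 (SE 0.59, adjusted p = 0.00798, edgeR), and the mean of the WT libraries was 21.4 times the level in KO 1 and 61.8 times that in KO 3.

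Irf3, which is made constitutively in most cells, had 32.7, 47.9 and 43.3 CPM in the WT libraries and 23.4, 37.9 and 18.6 CPM in KO 1, KO 2 and KO 3. KO 2 lay within the WT range and KO 1 and KO 3 below it. The log2 fold change was -0.63 (SE 0.30, adjusted p = 0.201) over all 6 libraries and -0.95 (SE 0.21, adjusted p = 0.0166, edgeR) without KO 2. The ratio of Irf7 to Irf3 FPKM was 2.09, 3.06 and 2.96 in the WT libraries, 0.228 in KO 1, 1.76 in KO 2 and 0.0996 in KO 3. All 3 KO libraries lay below the lowest WT library for this ratio. Relative to Irf7, 54.5% of all genes tested likewise stood higher in every KO library than in every WT library.

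Irf9, the DNA-binding partner of Stat2, had 71.3, 109.8 and 95.9 CPM in the WT libraries and 18.6, 73.2 and 12.6 CPM in KO 1, KO 2 and KO 3. KO 2 lay just above WT 1, so the groups overlapped by that library alone. The log2 fold change was -1.41 (SE 0.67, adjusted p = 0.2, edgeR), the smallest adjusted p of the 8 genes over all 6 libraries. Without KO 2 it was -2.54 (SE 0.27, adjusted p = 0.00798, edgeR). The ratio of Irf9 to Irf3 FPKM was 1.84 ± 0.0471 in WT libraries (SD, n = 3) and 0.654, 1.60 and 0.561 in KO 1, KO 2 and KO 3.

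Among the myeloid members, Irf8 had 60.0, 67.5 and 71.3 CPM in the WT libraries and 14.7, 126.6 and 9.19 CPM in KO 1, KO 2 and KO 3. KO 2 was thus the highest library by far, at 1.91 times the WT mean, and KO 1 and KO 3 the lowest. The log2 fold change of Irf8 was -0.40 (SE 0.96, adjusted p = 0.76, edgeR) over all 6 libraries and -2.45 (SE 0.24, adjusted p = 0.00798, edgeR) without KO 2. Irf5 had 13.9, 18.04 and 14.3 CPM in the WT libraries and 5.39, 18.3 and 5.40 CPM in KO 1, KO 2 and KO 3. KO 1 and KO 3 held nearly the same level of Irf5, and KO 2 lay just above WT 2. Its log2 fold change was -0.66 (SE 0.53, adjusted p = 0.368) and without KO 2 -1.49 (SE 0.21, adjusted p = 0.00801, edgeR).

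Irf4 was the rarest of the 8, with 62, 60 and 57 counts in the WT libraries and 24, 103 and 14 in KO 1, KO 2 and KO 3. These correspond to 2.92, 3.17 and 2.83 CPM and to 1.36, 4.54 and 0.727 CPM, the last with an exact 95% counting interval of 0.397 to 1.22 CPM. The 3 WT libraries lay close together, with KO 2 above them and KO 1 and KO 3 below. The log2 fold change was -0.42 (SE 0.66, adjusted p = 0.64) over all 6 libraries and -1.49 (SE 0.37, adjusted p = 0.0218, edgeR) without KO 2.

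**Figure D3:**
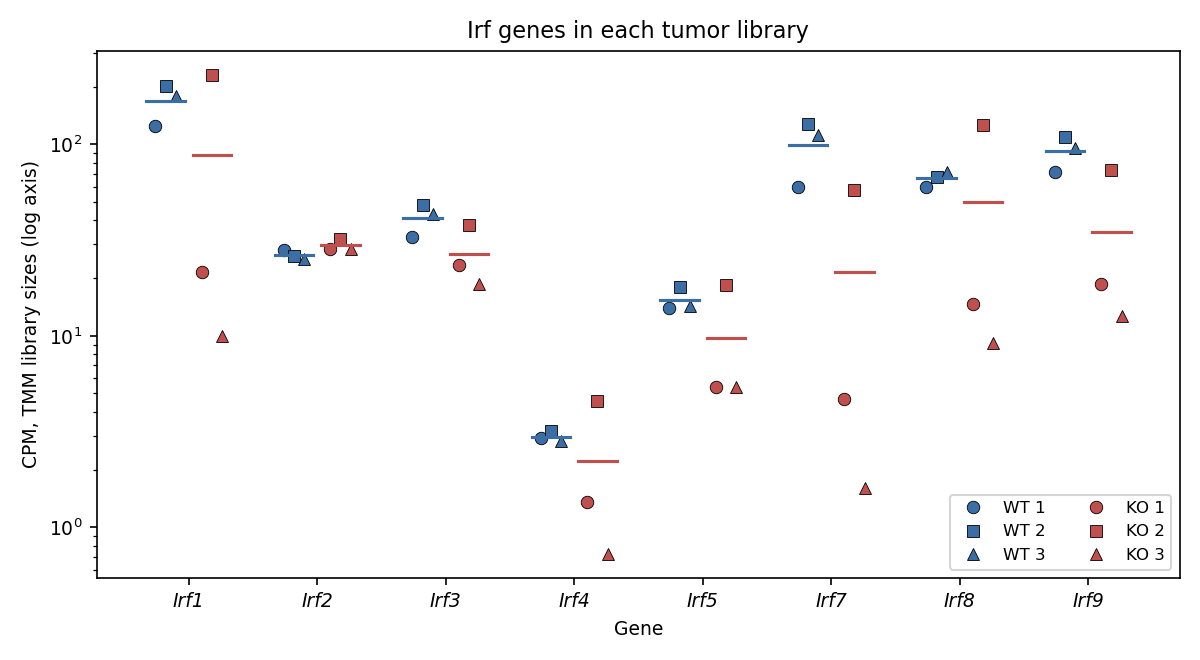
CPM (TMM library sizes, log axis) of each Irf gene in each library, WT hosts in blue and KO hosts in red, the marker shape giving the replicate number and the bar the group mean. KO 1 and KO 3 lie below all WT libraries for every gene but Irf2, and KO 2 lies above them for Irf1, Irf2, Irf4, Irf5 and Irf8, within their range for Irf3 and Irf9 and below it for Irf7.

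Across the family, KO 1 and KO 3 both lay below all 3 WT libraries for 7 of 8 genes, against 40.4% of all genes tested. KO 2 lay above all 3 WT libraries for 5 of 8 genes (Irf1, Irf2, Irf4, Irf5 and Irf8), against 22.4% of all genes. For 4 of them, Irf1, Irf4, Irf5 and Irf8, KO 1 and KO 3 lay below and KO 2 above the WT libraries, a pattern held by 4.9% of all genes. For these 4 genes the SD among KO libraries exceeded the distance between the group means. For Irf7 and Irf9 KO 2 stood at 0.583 and 0.793 times the WT mean.

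Ratios between the genes were compared after their values had been seen, over all 28 pairs, and in 12 of them the KO and WT libraries did not overlap. All of these but the pair of Irf1 and Irf8 held Irf7 or Irf9, and no share over pairs of all genes was computed. Irf7 was lower in every KO library relative to each of the other 7 genes. Relative to Irf7, 54.5% of all genes tested stood higher in every KO library than in every WT library and 0.068% lower, and the 7 of 7 should be read beside that share. Relative to Irf9, 4 of the other genes (Irf2, Irf3, Irf4 and Irf5) stood higher, against 36.3% of all genes, and 1 lower (Irf7), against 0.854%. The ratio of Irf7 to Irf1 was 0.577, 0.767 and 0.751 in the WT libraries and 0.262, 0.304 and 0.194 in KO 1, KO 2 and KO 3. That direction was held by 1.53% of genes relative to Irf1. The ratios of Irf7 to Irf1 and to Irf9 also fall within the 54.5% counted relative to Irf7. For the ratio of Irf7 to Irf1, KO 2 stood with KO 1 and KO 3, its Irf1 lying above all WT libraries and its Irf7 barely below them. The ratio of Irf8 to Irf1 was 0.363, 0.253 and 0.301 in the WT libraries and 0.517, 0.415 and 0.694 in KO 1, KO 2 and KO 3, higher in all 3 as for 1.32% of genes relative to Irf1. Each of the last comparisons has an exact two-sided permutation p of 0.1, the smallest that 3 against 3 libraries allow, and so cannot pass a threshold of 0.05.

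The other genes of the pathway were read from lists written by function. Over all 6 libraries 0 of the genes in these lists passed in either direction (edgeR, adjusted p under 0.05), so that the calls that follow are those without KO 2, beside 28.3% lower and 24.5% higher among all genes. All 15 sensors and adaptors had KO 1 and KO 3 below every WT library, against 40.4% of all genes, and 14 were called lower and 0 higher. Their median log2 fold change was -1.14 over all 6 libraries and -1.36 without KO 2, against a median of -0.02 for all genes in both fits. Tmem173, which encodes the STING adaptor, was lowest in the list over all 6 libraries, with 24.7, 54.0 and 34.2 CPM in the WT libraries and 5.73, 21.2 and 5.09 CPM in KO 1, KO 2 and KO 3. Its groups did not overlap, and its log2 fold change was -1.81 (SE 0.64, adjusted p = 0.184, edgeR) with all 6. Mb21d1, the sensor cGAS, stood at the other end at -0.19 (SE 0.37).

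The kinases and adaptors that act on Irf proteins had 4 of 11 called lower, 2 higher and a median of -0.23 without KO 2 (-0.16 over all 6). They ran from Irak4, a kinase of the Toll-like receptor pathway, at -0.79 to Tbkbp1, a partner of the kinase Tbk1, at 0.39 over all 6 libraries. Of 12 interferon genes listed, Ifng alone was in the count table, and the others were not analysed here. Ifng had 30, 30 and 27 counts in the WT libraries, 6 in KO 1, 48 in KO 2 and 0 in KO 3, where the floor of 3 counts is 0.156 CPM. Its log2 fold change was -0.79 (adjusted p = 0.611) over all 6 libraries and -3.07 (adjusted p = 0.0301, edgeR) without KO 2. Like Irf1, Ifng was highest in KO 2. Its exact 95% counting interval there, 1.56 to 2.81 CPM, overlapped those of WT 1, WT 2 and WT 3.

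Of 11 interferon receptor and JAK-STAT genes, 6 were called lower and 1 higher without KO 2. Stat2, the partner of Irf9, had 89.5, 108.5 and 112.1 CPM in the WT libraries and 42.7, 123.9 and 39.4 CPM in KO 1, KO 2 and KO 3. KO 1 and KO 3 lay below all WT libraries and KO 2 above them. The log2 fold change of Stat2 was -0.59 (SE 0.47, adjusted p = 0.367, edgeR) over all 6 libraries, and without KO 2 it was -1.31 (adjusted p = 0.00798, edgeR). Jak1, a kinase of the receptors, was the 1 called higher, at 0.67 (adjusted p = 0.0361, edgeR) without KO 2.

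Among 13 partners and corepressors 7 were called lower and 2 higher. Batf, a leucine zipper partner of Irf4 and Irf8, had 37, 63 and 39 counts in the WT libraries, 2 in KO 1, 54 in KO 2 and 0 in KO 3. Bcl6, a repressor, stood at the top of that list at 0.49 (adjusted p = 0.239, edgeR) over all 6 libraries. Of 12 inhibitors 6 were called lower and 0 higher, with Usp18, a brake on the interferon receptor, lowest at -2.16 over all 6 and -4.75 without KO 2 (adjusted p = 0.00798, edgeR). Ptpn2, a phosphatase of the JAK-STAT pathway, was highest at 0.22 (adjusted p = 0.303, edgeR).

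Among the target lists of the Irf proteins, of 20 ISRE targets 19 were called lower and 0 higher without KO 2, with a median log2 fold change of -4.01 (-1.80 over all 6 libraries). KO 2 lay above all WT libraries for 0 of these 20. Ifi44 was the lowest at -2.31 (adjusted p = 0.194, edgeR) over all 6, and Adar, an RNA editing enzyme, the highest at 0.06. Of 20 Irf1 and interferon-gamma targets 19 were called lower and 0 higher as well, with medians of -3.85 without KO 2 and -1.02 over all 6. For 11 of these 20, KO 2 lay above all WT libraries, against 22.4% of all genes. Gbp3, an interferon-induced GTPase, was lowest at -1.91 and Ido1, which degrades tryptophan, highest at 0.98 over all 6 (adjusted p = 0.292 and 0.364, edgeR).

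Of 14 Irf8 and Irf5 myeloid targets in the table, 10 were called lower and 0 higher without KO 2, with a median of -1.59 (-0.63 over all 6). Tnf, an inflammatory cytokine, was lowest at -1.78 and Il12a, an interleukin subunit, highest at 0.54 over all 6 libraries (adjusted p = 0.347 and 0.515, edgeR). Summed over the list, levels were 1683 to 1843 CPM in WT libraries, 1404 CPM in KO 1, 1221 CPM in KO 3 and 2041 CPM in KO 2. The largest part of each sum was Cst3, with 848.7 to 1063 CPM in WT libraries and 1016, 1030 and 887.5 CPM in KO 1, KO 2 and KO 3.

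Markers of the cell types that express Irf genes moved with them in part, and fewer cells of a type cannot be told apart from less RNA per cell in bulk tumors. Microglia markers (10 of 10 in the table) summed to 610.0 to 736.6 CPM in WT, 655.8 in KO 1, 819.8 in KO 2 and 605.1 in KO 3. KO 1 and KO 3 thus lay within or just below the WT range for this list while Irf8 and Irf5 were lower in them. Of its 10 markers 4 lay below and 5 above all WT libraries in both KO 1 and KO 3, against 40.4% and 37.2% of all genes, and 3 were called lower and 2 higher without KO 2, against 28.3% and 24.5%. Irf8 came to 8.15, 11.0 and 11.7% of the summed microglia markers in the WT libraries, and to 2.24, 15.4 and 1.52% in KO 1, KO 2 and KO 3. Markers of macrophages and monocytes (10 genes) summed to 241.1 to 369.0 CPM in WT, 62.7 in KO 1, 360.7 in KO 2 and 45.0 in KO 3, with Chil3 at 0 in KO 3. Here 6 markers lay below and 1 above all WT libraries in both KO 1 and KO 3, against the same 40.4% and 37.2%. Without KO 2, 5 of the 10 were called lower and 0 higher, against 28.3% and 24.5%. Most of the summed CPM was Lyz2, and without Lyz2 and Itgal the other 8 markers summed to 32.1 to 58.5 CPM in WT and to 18.5, 47.8 and 20.3 CPM in KO 1, KO 2 and KO 3. Against the whole list, Lyz2 included, Irf8 came to 18.6 to 24.9% in WT and to 23.4, 35.1 and 20.4% in KO 1, KO 2 and KO 3. The reading differed against the other 8 markers alone. Irf8 lay above their sum in every WT library and in KO 2. It lay below that sum in KO 1 (14.7 against 18.5 CPM) and KO 3 (9.19 against 20.3 CPM).

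The other immune lists also had their lowest sums in KO 1 and KO 3. Dendritic cell markers (10 genes) summed to 189.6 to 331.3 CPM in WT, 56.1 in KO 1, 212.7 in KO 2 and 52.9 in KO 3, with Xcr1 at 0 in KO 1 and KO 3. The largest part of the differences between these sums came from Bst2, which is also on the ISRE list, and Itgax. Of the 10 markers 7 lay below and 2 above all WT libraries in both KO 1 and KO 3, against 40.4% and 37.2% of all genes. Without KO 2, 6 were called lower and 1 higher, against 28.3% and 24.5%. Without Bst2 and Itgax the other 8 markers summed to 38.9 to 44.3 CPM in WT and to 42.8, 46.6 and 47.8 CPM in KO 1, KO 2 and KO 3. In that sum Siglech and Flt3 were highest in KO 1 and KO 3, while most of the others were lower there. Siglech, which is also on the microglia list, had 7.35 to 16.4 CPM in WT and 25.15, 16.97 and 27.88 CPM in KO 1, KO 2 and KO 3. T cell and NK cell markers (10 of 12) summed to 36.4 to 38.5 CPM in WT, 27.6 in KO 1, 49.9 in KO 2 and 6.08 in KO 3, with Prf1 at 0 in KO 3. Of the 27.6 CPM in KO 1, Cd4 made up 22.8. B cell and plasma cell markers (6 of 10) summed to 24.2 to 49.6 CPM in WT, 5.22 in KO 1, 40.3 in KO 2 and 3.12 in KO 3, and Sdc1 contributed most of the sum in WT libraries. Their part in the levels of Irf4 and the other members was not tested.

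Lists that mark the tissue in the sample moved with the same libraries. Neuron markers (10 genes) summed to 2465 to 5910 CPM in WT, 13140 in KO 1, 5229 in KO 2 and 15460 in KO 3, and myelinating oligodendrocyte markers (10 genes) to 1419 to 3524, 7845, 3352 and 4057 CPM. Astrocyte markers (10 genes) summed to 3437 to 4375 CPM in WT and to 6850, 4747 and 6187 CPM in KO 1, KO 2 and KO 3. Of these KO sums Slc1a2 made up 4123, 1918 and 3745 CPM. Among the 10 markers 2 lay below and 6 above all WT libraries in both KO 1 and KO 3, against 40.4% and 37.2% of all genes. Gfap went down, with 1081 to 1170 CPM in WT and 246.1, 814.9 and 223.3 CPM in KO 1, KO 2 and KO 3. Proliferation genes (10 genes) summed to 1132 to 2092 CPM in WT, 120.3 in KO 1, 1255 in KO 2 and 36.3 in KO 3. Endothelial markers (10 genes), by contrast, stood at 182.0 to 230.2 CPM in WT and at 235.5, 213.4 and 172.2 CPM in the KO libraries. The part of these lists in the Irf levels was not tested.

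**Figure D4:**
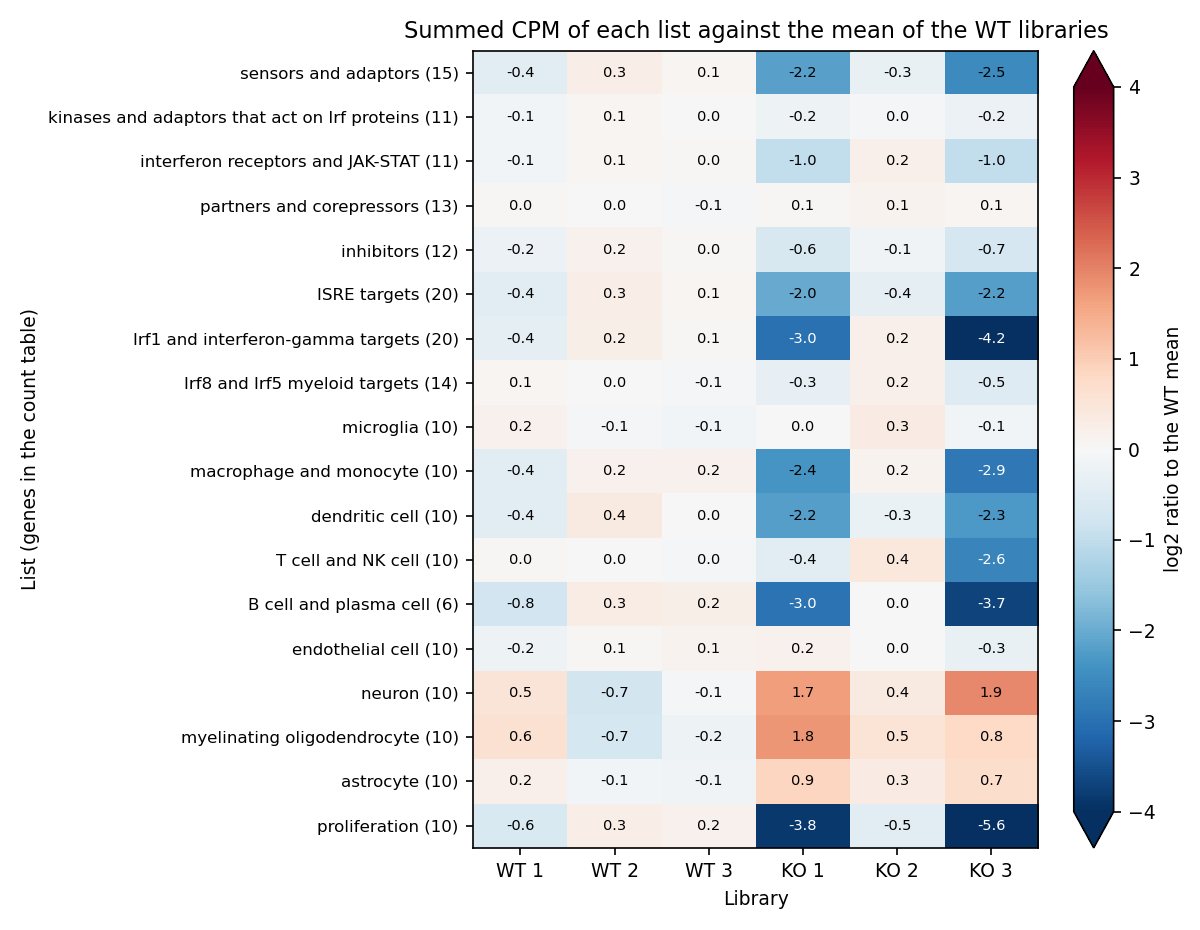
Summed CPM of each pathway and marker list in each library as a log2 ratio to the mean of the 3 WT libraries (blue lower, red higher, colour capped at 4). ISRE, interferon-gamma and proliferation lists are low in KO 1 and KO 3 and near the WT libraries in KO 2, whereas the microglia and endothelial lists differ little.

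Genes with the pattern most like that of 3 members were found by the smallest root mean square difference in log2 CPM, after centring each gene on its mean over the 6 libraries. Among the closest to Irf1 were Itgal, an integrin of leukocytes (0.134), and H2-D1, an MHC class I gene (0.136). H2-D1 had 536.5, 672.0 and 706.5 CPM in the WT libraries and 89.3, 828.0 and 43.4 CPM in KO 1, KO 2 and KO 3. Closest to Irf7 were Oas1a, an interferon-induced RNA sensor (0.104), Ppic, a peptidyl-prolyl isomerase (0.141), and Hoxa4, a homeobox gene with 0 counts in KO 3 (0.142). Oas1a had 23.3, 54.0 and 46.8 CPM in the WT libraries and 2.21, 27.0 and 0.623 CPM in KO 1, KO 2 and KO 3. Closest to Irf8 were H2-DMb1, which helps load MHC class II (0.110), Sh3bp4 (0.113) and Ciita, the master activator of MHC class II (0.125). Ciita had 25.5, 30.7 and 25.7 CPM in the WT libraries and 6.41, 49.3 and 4.15 CPM in KO 1, KO 2 and KO 3. These differences were computed over 6 libraries of which KO 1 and KO 3 stood apart, and they are descriptions without a test.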

How the data were processed

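The authors deposited a table of raw read counts per gene and FPKM values (counts per gene length and library total) for 6 tumors, and no reads were processed here. The submitters' notes name mm10, CASAVA 1.8.2 and edgeR, and the kit named in the labels differs from that in the methods. The authors' fold changes and p-values, and 9 normalized per-library columns, were not used. Counts were tested with edgeR 4.0.16 (quasi-likelihood, TMM, filterByExpr, group as the only term) in R 4.3.3 over all 6 libraries, with limma 3.58.1, DESeq2 1.42.0 and other scalings and filters as alternatives. The fitting step was tested on simulated data. Genes named beside the 8 members were Esm1, Stat2, every interferon gene in the table, the lowest and highest log2 fold change of each pathway list and the 3 nearest genes to Irf1, Irf7 and Irf8. A gene that this rule names is not reported here. Markers and other genes at 0 counts, with Cst3, Bst2, Itgax, Lyz2, Siglech, Flt3, Cd4, Sdc1, Slc1a2 and Gfap, were named after values were seen. Marker sums without the 2 most abundant markers, and counts by direction for dendritic cell, macrophage and astrocyte markers, were added then as well. The members and lists were chosen with earlier results of these data known. Promoters were taken from RefSeq (GRCm38.p6).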

Additional observations from a re-analysis of the deposited data

How the results depend on the processing

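The number of genes lower and higher in KO hosts was 0 and 0 over all 6 libraries, 2244 and 464 with WT 1, WT 2, KO 1 and KO 3, 425 and 757 with DESeq2 and 46 and 75 with edgeR's exact test. Leaving out 1 library at a time gave 0 to 4608 lower and 0 to 3986 higher genes, and 0 to 7 of the 8 Irf genes lower, the upper values coming without KO 2. With the 4 libraries 5 Irf genes were lower. The log2 fold change of Irf8 ranged from -2.45 without KO 2 to 0.094 without KO 3, and was 0.03 without KO 1, so that its direction turned without either library. The other 7 genes kept their direction under the 16 alternatives, Irf4 reaching -0.00. Scaling to total counts moved the median of all genes from -0.02 to -0.17. Correlations of deviations were 0.553, 0.595 and -0.210 between libraries of the same replicate number and -0.644 to 0.542 between those of different numbers. They do not settle whether replicate numbers pair the samples. With the replicate block 0 genes were lower or higher and Irf7 stood at -3.52 (adjusted p = 0.0879, edgeR). The block and limma-voom also gave larger estimates, at -2.21 and -2.11 for Irf1, -1.42 and -1.28 for Irf8 and -2.62 and -2.55 for the median of the Irf1 and interferon-gamma targets, with 0 Irf genes called in either. The cause of these changes was not tested. Among the 8 genes Irf4 had the fewest counts (14 in KO 3), and several other genes named had 0 to 4 counts in KO 1 or KO 3.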
